A study of Mus musculus with 21 samples.

Results

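Reads of transfer RNAs from the back skin of NSun2-/- mice were compared with those of wild-type (WT) mice, isoacceptor by isoacceptor, by the part of the tRNA that each read covers. The comparison uses 8 of the 21 samples of the series, 4 WT and 4 NSun2-/- libraries, and takes every row of the deposited tRNA count table. All mice were males of the background C57Bl6/J CBA F1 at postnatal day 25, when the hair follicles are in anagen, the growth phase, and no further allele or agent is given. The NSun2-/- mice carry a gene trap (GGTC clone D014D11) in an intron of the NSun2 gene in the germ line, so the loss is not limited to the skin. Each library holds RNA of whole back skin, in which keratinocytes, fibroblasts and other cells are mixed. The table holds no messenger RNA, so neither the loss of the NSun2 transcript nor markers of skin cells could be checked in these libraries. The libraries hold between 17352126 and 36749727 counts of reads between 18 and 95 nt, made from RNA selected between 20 and 200 nt and freed of its amino acids. The 53875 rows pair 1143 tRNA genes of 60 isoacceptor names with 32271 distinct read sequences.

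A tRNA folds into a cloverleaf whose anticodon loop reads the codon. Its gene does not encode the last nucleotides CCA, which an enzyme adds to the 3′ end of each new tRNA and which carry the amino acid. NSun2 methylates cytosines of tRNAs, mostly where the variable loop meets the T arm, and angiogenin, a ribonuclease induced by stress, cuts tRNAs in the anticodon loop and leaves 5′ and 3′ pieces. An isoacceptor is named by its amino acid and its anticodon, so that GlyGCC is the glycine tRNA with the anticodon GCC. tRNA His differs from all others in an extra guanosine that is added before its encoded first nucleotide.

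Genes that give many of the counts described here are shown first, with the anticodon in capitals, because fragment ends are given relative to it. The coordinates are those of the mm9 build (NCBIM37). The printed genes are GlyGCC at chr1:172975116-172975186 (plus strand), ValCAC at chr1:173041574-173041646 (plus strand), HisGTG at chr2:122201230-122201301 (minus strand), MetCAT at chr3:90279782-90279853 (minus strand) and GlyTCC at chr1:172968128-172968199 (minus strand). Each is the most counted of several genes, and between 4 and 8 genes share each printed sequence. The MetCAT gene shown is that of the initiator tRNA, which starts translation, and it takes nearly all MetCAT 5′ reads of each library (99.9% in WT replicate 2, the lowest).
GlyGCC gene: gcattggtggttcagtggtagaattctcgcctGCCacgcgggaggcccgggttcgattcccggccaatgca
ValCAC gene: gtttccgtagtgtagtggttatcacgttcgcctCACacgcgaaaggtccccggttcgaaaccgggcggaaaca
HisGTG gene: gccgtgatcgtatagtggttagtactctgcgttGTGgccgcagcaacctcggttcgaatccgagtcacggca
MetCAT gene: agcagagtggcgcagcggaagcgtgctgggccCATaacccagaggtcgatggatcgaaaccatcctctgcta
GlyTCC gene: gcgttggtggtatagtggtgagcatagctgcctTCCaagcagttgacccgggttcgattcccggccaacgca

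Every read was put into 1 of 5 classes. Reads over at least 90% of the gene were called near full length, with or without the added CCA. Of the others, reads that start at the first nucleotide (at the added guanosine in tRNA His) are 5′ reads. Reads that end with the whole added CCA are CCA-end reads, and the rest are internal reads. A read that stops within the CCA, or has a mismatch in it, does not count as a read with CCA. Per library, 51.6% to 65.2% of the counts belong to reads that are also listed at genes of another isoacceptor, and the authors divided such reads between genes by a fixed rule. For the GlyGCC 5′ reads this holds for 97.6% of the counts, which are listed under GlyCCC as well. Over the first 32 nucleotides the nearest GlyCCC gene, at chr3:96155090-96155160 (minus strand), differs from GlyGCC at 2 positions, given with the GlyGCC base first and counted from the first nucleotide, G9A and G15A (capitals).
GlyCCC gene, first 32 nt: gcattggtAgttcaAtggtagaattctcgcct
Of the 5′ counts listed as GlyGCC, 95.4% to 99.3% per library had fewer mismatches to GlyGCC genes than to GlyCCC genes. Of those listed as GlyCCC, 72.1% to 87.9% were also nearer to GlyGCC and 4.94% to 11.8% nearer to GlyCCC, so the GlyCCC values below stand largely for reads of GlyGCC sequence.

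Reads from the first nucleotide were the largest class in all 8 libraries. They made up 77.0, 75.7, 85.7 and 84.6% of all counts in WT and 85.7, 93.9, 86.6 and 85.8% in NSun2-/- libraries (replicates 1 to 4, the order kept below). The groups overlap, and NSun2-/- replicate 2 is the highest of all. Near full-length reads with CCA took 9.18, 9.44, 6.78 and 6.56% in WT and 4.54, 1.86, 5.06 and 4.14% in NSun2-/- libraries, with every NSun2-/- library below every WT library (mean difference -4.09 percentage points). CCA-end reads took 8.97, 9.42, 3.51 and 4.40% in WT and 4.10, 1.00, 2.68 and 3.33% in NSun2-/- libraries, and here 1 NSun2-/- library lies above 1 WT library. For these 3 classes the adjusted p is 0.0952 each (exact two-sided permutation test over libraries, adjusted over 5 classes), so none passes the threshold of 0.05, and 4 libraries against 4 cannot give a raw p below 0.0286. Internal reads held 2.64% ± 0.358 (SD, n = 4) of the counts in WT and 2.54% ± 0.274 (SD, n = 4) in NSun2-/- libraries. Near full-length reads without CCA held 1.82% ± 0.281 and 2.61% ± 1.34 (SD, n = 4 each).

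**Figure D1:**
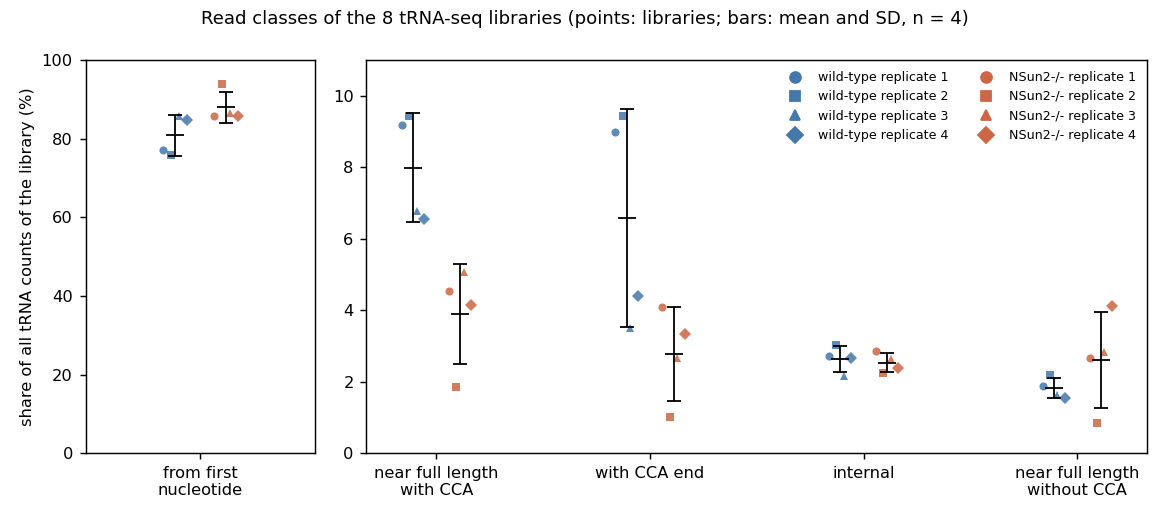
Share of all tRNA counts of a library (%, vertical axis) in each of the 5 read classes; points are the 4 WT (blue) and 4 NSun2-/- (orange) libraries, and bars give the mean and SD. Near full-length reads with CCA lie between 6.56 and 9.44% in WT and between 1.86 and 5.06% in NSun2-/- libraries, while the other classes overlap.

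The classes differ in the isoacceptors that fill them. GlyGCC gives 67.2% of the 5′ counts (mean of the 8 libraries), followed by ValCAC with 8.56%, MetCAT with 7.23%, GluCTC with 4.27% and HisGTG with 3.32%. Near full-length reads with CCA come from the 2 glutamate tRNAs, GluTTC with 64.9% and GluCTC with 23.7%, and then from AspGTC with 7.86%. Of those without CCA, 95.7% are GluCTC. HisGTG leads the CCA-end reads with 36.6%, before AspGTC with 12.9% and ArgTCT with 12.2%, and it leads the internal reads with 19.5%. GlyGCC, which dominates the 5′ reads, gives 5.12% of the CCA-end reads.

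Changes of single isoacceptors were tested with edgeR on 168 pairs of isoacceptor and class, of which 11.9% rose and 11.9% fell in NSun2-/- libraries. A level is given below as CPM, the count scaled to a library total of 1e6. The log2 fold change is NSun2-/- over WT after TMM, a further scaling that sets the bulk of the 168 values near no change, and it therefore differs from the ratio of the CPM. The TMM factors ran from 0.980 to 1.57 in WT and from 0.599 to 1.08 in NSun2-/- libraries. Without them the median change over all 168 moved from 0.03 to -0.47, rises went from 20 to 5 and falls from 20 to 24. Directions are therefore relative to the other tRNA reads. After TMM, 13.7% of the 168 pairs were higher and 14.9% lower in all 4 NSun2-/- than in all 4 WT libraries. Many calls rest on single libraries, since 11 of the 40 held when any 1 library was left out and 29 were lost without at least 1, and 12 remained without WT replicate 2.

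Among the 5′ reads, 10 of 42 isoacceptors rose (23.8%) and 0 fell (2 fell at an unadjusted p under 0.05, and 1 by DESeq2). Without TMM 5 rose and 4 fell, and the median over the 42 went from 0.43 to -0.10. ValCAC showed the largest rise. Its 5′ reads were counted at 43831, 54097, 42528 and 28209 CPM in WT and at 79793, 64366, 79899 and 188442 CPM in NSun2-/- libraries. All NSun2-/- libraries lie above all WT libraries, and NSun2-/- replicate 4 stands far above the other 3. The log2 fold change was 1.79 (SE 0.35, edgeR adjusted p = 0.0117), and it was 1.29 (adjusted p = 0.0425 by edgeR) without TMM. HisGTG gave 20773, 15701, 17354 and 20364 CPM in WT and 35615, 34381, 48777 and 33876 CPM in NSun2-/- libraries, again without overlap. Its log2 fold change was 1.57 (SE 0.32, edgeR adjusted p = 0.0122), and 1.04 (adjusted p = 0.0140 by edgeR) without TMM. Neither call was lost when any 1 library was left out.

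The initiator tRNA MetCAT gave 51055, 28077, 43871 and 51937 CPM in WT and 72280, 106902, 91577 and 50366 CPM in NSun2-/- libraries, where replicate 4 lies within the WT range. Its rise of 1.45 (edgeR adjusted p = 0.0413) has the highest adjusted p of the 10. It was lost without TMM (0.88, adjusted p = 0.0536 by edgeR) and without any of WT replicates 1, 2, 3 and 4 or NSun2-/- replicates 2 and 3, where edgeR's adjusted p lay between 0.0585 and 0.111. The other 7 rises were in less abundant tRNAs, namely TrpCCA (1.69), AsnGTT (1.59), ArgCCG (1.58), ThrTGT (1.52), ValAAC (1.51), ArgACG (1.13) and SerGCT (0.94). Of these, TrpCCA, ArgCCG and ThrTGT stayed called without TMM. Of the ValAAC 5′ counts, 89.4% belong to reads also listed under another isoacceptor, ValCAC among them, and its call was lost without WT replicate 2 (adjusted p = 0.0595 by edgeR) or WT replicate 4 (0.0516). ArgCCG was lost without WT replicate 1 (0.0508), WT replicate 2 (0.0825) or NSun2-/- replicate 3 (0.0606). ArgACG and SerGCT were lost without any of WT replicates 1, 2 and 4, and SerGCT also without NSun2-/- replicate 3 (adjusted p between 0.0502 and 0.0898 by edgeR), whereas TrpCCA, AsnGTT and ThrTGT held without any 1 library.

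GlyGCC, the source of most 5′ reads, did not pass the test. Its 5′ reads took 54.5, 53.4, 63.4 and 61.9% of all counts in WT and 56.1, 61.8, 52.7 and 49% in NSun2-/- libraries, and the groups overlap. The log2 fold change was 0.46 (SE 0.34, edgeR adjusted p = 0.357) with TMM and -0.09 without it. GluCTC, well known as a source of 5′ fragments under stress, gave 33242, 34529, 29952 and 37066 CPM in WT and 38570, 45859, 46498 and 22927 CPM in NSun2-/- libraries (log2 0.78, adjusted p = 0.129 by edgeR). Without NSun2-/- replicate 4, the lowest of the 8, it passed (1.01, adjusted p = 0.0474 by edgeR). The log2 fold changes of the other named isoacceptors that did not pass were 0.94 for GluTTC (adjusted p = 0.0677 by edgeR), 0.68 for ValTAC, 0.52 for CysGCA (-0.07 without TMM), 0.26 for GlyCCC (-0.27 without TMM), 0.10 for LysCTT (-0.43 without TMM), -0.05 for LysTTT and -0.19 for AspGTC. GluTTC passed with DESeq2 (0.95, adjusted p = 0.0215) and without NSun2-/- replicate 1 (1.12, adjusted p = 0.0370 by edgeR). LysTTT passed as a fall without NSun2-/- replicate 2 (-0.77, adjusted p = 0.0372 by edgeR). GlyCCC rose by 1.60 (adjusted p = 0.0073 by edgeR) when reads were counted for the isoacceptor of the best matching gene, with ties split equally. Reads with as many mismatches to GlyGCC as to GlyCCC genes made up 0.688, 0.774, 0.737 and 0.905% of the 5′ counts listed as GlyGCC in WT. In NSun2-/- libraries they made up 4.64, 4.04, 3.36 and 4.41%. Of the counts listed as GlyCCC they made up 7.14% to 16.1% per library. The part of such ties in the GlyCCC rise was not tested. GlyTCC, at -0.86 (edgeR adjusted p = 0.0848), was the lowest of the 42, and its fall passed without TMM (-1.48, adjusted p = 0.0161 by edgeR), with DESeq2 (-0.89, adjusted p = 0.0386) and without NSun2-/- replicate 2 (-1.24, adjusted p = 0.0306 by edgeR). Of the 12 tested isoacceptors of tRNAs Asp, Glu, Gly, His, Lys and Val, the isotypes discussed by the study for 5′ fragments, 3 rose and 0 fell (1 at an unadjusted p under 0.05, and 1 by DESeq2). Their median was 0.57 beside 0.43 over all 42.

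**Figure D2:**
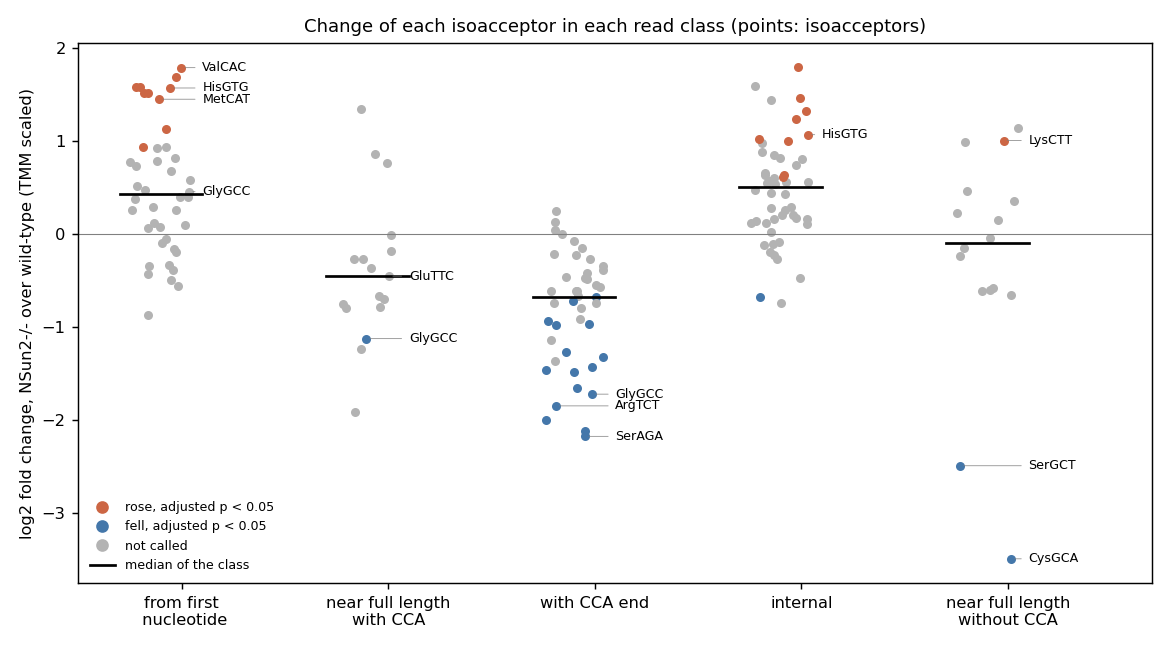
Log2 fold change, NSun2-/- over WT after TMM (vertical axis), of each isoacceptor in each read class; every point is an isoacceptor, orange for rises, blue for falls and grey for those that did not pass edgeR's adjusted p of 0.05, and black lines are class medians. Medians are 0.43 for 5′ reads, 0.51 for internal reads and -0.67 for CCA-end reads, and without TMM they are -0.10, -0.05 and -1.18.

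Reads that end with the whole added CCA went the other way. Of 43 isoacceptors, 16 fell (37.2%) and 0 rose, also 0 at an unadjusted p under 0.05 and 0 by DESeq2. The count of falls was 16 without TMM as well, and the median was -0.67 with TMM and -1.18 without. SerAGA, a serine tRNA with a long variable arm, showed the largest fall. It was counted at 576, 1133, 488 and 561 CPM in WT and at 163, 54.3, 91.2 and 123 CPM in NSun2-/- libraries, with all NSun2-/- libraries below all WT libraries (log2 -2.17, SE 0.24, edgeR adjusted p = 0.00069). SerTGA followed with -2.12, though 95.2% of its counts here belong to reads also listed under SerAGA. ProTGG went from 116, 293, 121 and 142 CPM in WT to 45, 8.35, 27.9 and 40.4 CPM in NSun2-/- libraries, and it did not pass in reads without mismatch (-1.54, adjusted p = 0.0510 by edgeR). ArgTCT, the most abundant tRNA with a call in this class, went from 3530, 18443, 7616 and 9811 CPM in WT to 2055, 1085, 2201 and 2107 CPM in NSun2-/- libraries (log2 -1.85, edgeR adjusted p = 0.0148). These 4 calls and that of LeuTAG held when any 1 library was left out, and the other 11 of the 16 did not.

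GlyGCC, which did not pass in the 5′ reads, fell among the CCA-end reads. The values were 9337, 5746, 1723 and 2245 CPM in WT and 1447, 316, 881 and 1490 CPM in NSun2-/- libraries, with a wide spread among the WT libraries. The log2 fold change was -1.72 (SE 0.50, edgeR adjusted p = 0.0362). It dropped to -1.13 (adjusted p = 0.0732 by edgeR) without WT replicate 1, the highest library, and the call was also lost without WT replicate 2 (0.0792) or NSun2-/- replicates 1 (0.0551), 2 (0.0572) or 3 (0.0858). GlyTCC (-1.46), GlyCCC (-1.43), CysGCA (-1.32) and ValCAC (-0.72) fell too, and each of these 4 calls was lost without WT replicate 1, WT replicate 2 or NSun2-/- replicate 3 (adjusted p between 0.0501 and 0.105 by edgeR). GlyTCC, GlyCCC and ValCAC were also lost without TMM (0.0554, 0.0536 and 0.0536) and with a start within 1 nucleotide of the first (0.0503, 0.0503 and 0.0687), and ValCAC in reads without mismatch (0.0580). HisGTG, whose 5′ reads rose, gave 42041, 30005, 9551 and 10116 CPM of CCA-end reads in WT and 19793, 3198, 11184 and 13880 CPM in NSun2-/- libraries, overlapping groups that did not pass (-0.46, adjusted p = 0.551 by edgeR). AspGTC (-0.21), GluTTC (-0.39), GluCTC (-0.79) and LysCTT (-0.74) did not pass either.

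Near full-length reads with CCA were tested for 17 isoacceptors, of which 1 fell (5.88%) and 0 rose (0 at an unadjusted p under 0.05, and 0 by DESeq2). The 1 fall was GlyGCC, at 432, 332, 215 and 217 CPM in WT and 169, 52.2, 76.6 and 102 CPM in NSun2-/- libraries (log2 -1.12, SE 0.27, edgeR adjusted p = 0.0220). It was lost without NSun2-/- replicate 3 (adjusted p = 0.0501 by edgeR) and when reads from 80% of the gene were counted (-1.96, adjusted p = 0.0520 by edgeR). GluTTC, the most abundant of the class, gave 51305, 57248, 45743 and 44417 CPM in WT and 31089, 13442, 36268 and 22598 CPM in NSun2-/- libraries. No NSun2-/- library reaches a WT library, yet after TMM the change was -0.45 (edgeR adjusted p = 0.264). AspGTC (-0.69) and GluCTC (-0.76) showed the same lack of overlap in CPM and did not pass. LysCTT was at -0.00 with TMM and -0.51 without.

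Among internal reads 9 of 50 isoacceptors rose (18%) and 1 fell (2%). Without TMM no rise passed and the median went from 0.51 to -0.05. HisGTG internal reads gave 4209, 4546, 3458 and 4387 CPM in WT and 5810, 5811, 7043 and 4810 CPM in NSun2-/- libraries (log2 1.07, edgeR adjusted p = 0.0247). The call was lost without WT replicate 1 (0.0508), WT replicate 2 (0.0787) or NSun2-/- replicate 3 (0.0563). Most of its rise lies in reads that start at the encoded nucleotide 1 and lack the added guanosine. When reads that start within 1 nucleotide of the first were moved to the 5′ reads, the change of the remaining HisGTG internal reads was 0.17 (adjusted p = 0.51 by edgeR). The share of HisGTG reads without the added guanosine, among those that start there or at nucleotide 1, was 11.8% ± 1.12 in WT and 10.7% ± 1.47 (SD, n = 4 each) in NSun2-/- libraries. The remaining rises were AlaAGC (1.80), LeuAAG (1.46), AsnGTT (1.33), IleGAT (1.24), TrpCCA (1.02), MetCAT (1.00), GluTTC (0.64) and ValCAC (0.61), and the fall was SerAGA (-0.67). IleGAT is rare, with 61 to 338 counts per library over all its reads. All 10 internal calls were lost without WT replicate 2 (adjusted p between 0.0676 and 0.115 by edgeR).

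Where the 5′ reads end was read from the last nucleotide, numbered so that the anticodon is 34 to 36 in every tRNA. Positions 31 to 33, the border and the first bases of the anticodon loop, held 90.5% ± 1.29 of the 5′ reads in WT and 91.6% ± 0.787 in NSun2-/- libraries (SD, n = 4 each). In GlyGCC these are the reads of 30, 31 and 32 nt, shown with nucleotide 9 in capitals because it is taken up below, beside a read of 18 nt that stops in the D arm.
GlyGCC, 18 nt: gcattggtGgttcagtgg
GlyGCC, 30 nt: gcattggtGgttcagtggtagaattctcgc
GlyGCC, 31 nt: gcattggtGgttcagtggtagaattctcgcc
GlyGCC, 32 nt: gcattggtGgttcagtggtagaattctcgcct

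The end shifted by 1 nucleotide between libraries of the same genotype. In WT replicate 1 and NSun2-/- replicate 2, reads that end at 31 took 39.7% and 35.2% of the 5′ reads, while they took between 7.98 and 19.3% in the other 6 libraries. Reads that end before the loop made up 44.4, 11.5, 17.5 and 21.7% in WT and 21.8, 40.3, 23.5 and 17.7% in NSun2-/- libraries. Reads that end at 32 or 33 made up 51.0, 80.9, 77.1 and 72.4% in WT and 72.9, 56.8, 71.1 and 77.4% in NSun2-/- libraries. The groups overlap in both, and 1 library of each genotype is set apart from the rest (adjusted p = 0.857 and 0.914, exact permutation test, adjusted over 5 regions). The mean length of 5′ reads was 31.3 nt in both groups (SD 0.241 and 0.284 nt, n = 4 each, exact permutation p = 0.714). Ends at 37 or 38, at the 3′ side of the loop, were rare. They took 0.0243, 0.0715, 0.0426 and 0.0507% in WT and 0.0195, 0.0081, 0.0152 and 0.0119% in NSun2-/- libraries, all NSun2-/- libraries below all WT libraries (exact permutation p = 0.0286, adjusted 0.143).

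**Figure D3:**
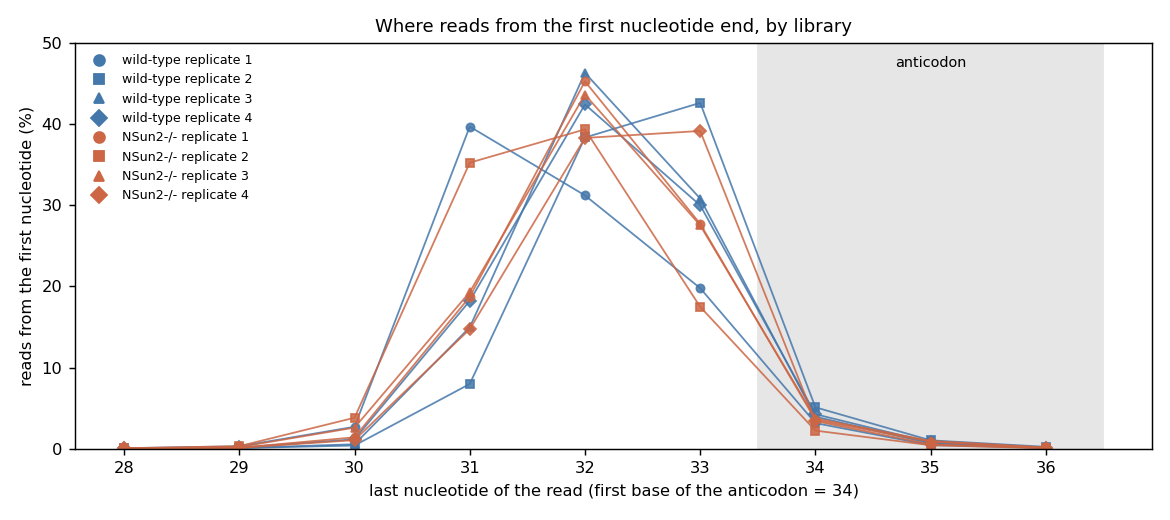
Share of the 5′ reads of a library (%, vertical axis) by the last nucleotide of the read (horizontal axis, first base of the anticodon at 34, anticodon shaded); lines and points are the 8 libraries, WT in blue and NSun2-/- in orange. WT replicate 1 and NSun2-/- replicate 2 have the most reads ending at 31, 39.7% and 35.2%, and 31 is the highest point in WT replicate 1 alone, with the other 7 libraries highest at 32 or 33.

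Single isoacceptors had ends of their own. ValCAC reads ended at 33 in 87.6% ± 1.94 (SD, n = 4) of cases in WT and 91.6% ± 0.930 (SD, n = 4) in NSun2-/- libraries, MetCAT reads ended at 32 in 95.0% ± 1.43 and 96.2% ± 0.554, and GlnCTG and LysCTT ended most often at 34, at the first base of the anticodon. HisGTG was split between 30, 31 and 33, and its split followed the library, from 8.62% at 30 in WT replicate 2 to 37.7% in WT replicate 1. The reads that end at the main site of ValCAC, HisGTG and MetCAT are these, with the added guanosine of tRNA His first in its read.
ValCAC, 33 nt: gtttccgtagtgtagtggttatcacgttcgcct
HisGTG, 34 nt: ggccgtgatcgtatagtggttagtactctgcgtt
MetCAT, 31 nt: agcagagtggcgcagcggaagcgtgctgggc
Over 193 shares of an end position within an isoacceptor, 6.22% were higher and 6.22% lower in all 4 NSun2-/- than in all 4 WT libraries, and each of these has an adjusted p of 0.230 (exact permutation, smallest raw p 0.0286). In CysGCA the share of reads ending at 34 was 2.10, 1.10, 1.60 and 1.97% in WT and 5.61, 4.12, 4.67 and 5.41% in NSun2-/- libraries. In ValAAC reads ending at 33 went from 73.0% ± 1.77 to 84.4% ± 2.37, and reads ending at 23 from 16.7% ± 3.11 to 7.64% ± 2.00 (SD, n = 4 each).

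Several tRNAs also had 5′ reads that run past the anticodon loop. GlnCTG had 7292 to 21356 5′ reads per library over nucleotide 55, and its mean 5′ length was 38.1 nt in both groups. In GlyTCC and AspGTC, reads past the loop took a smaller mean share in NSun2-/- libraries. In GlyTCC they made up 48.8, 47.7, 50.8 and 41.7% of the 5′ reads in WT and 32.8, 17.8, 21.4 and 19.0% in NSun2-/- libraries, so that the groups are far apart. In AspGTC they were 1.24% ± 0.559 in WT and 0.326% ± 0.0579 in NSun2-/- libraries (SD, n = 4 each). In both tRNAs the leading long read has 53 nt and stops at the start of the T loop, in the arm next to the cytosines that NSun2 methylates.
GlyTCC, 53 nt: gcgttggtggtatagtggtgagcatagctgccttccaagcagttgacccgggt
AspGTC, 53 nt: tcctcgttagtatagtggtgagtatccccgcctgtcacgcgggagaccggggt
The mean length of GlyTCC 5′ reads fell by 4.56 nt, from 41.6 ± 0.906 to 37.1 ± 1.34 nt (SD, n = 4 each, limma adjusted p = 0.0145). It was 1 of 40 isoacceptors with shorter reads (2.5%), while ValAAC (0.94 nt) and SeC(e)TCA (2.38 nt), a selenocysteine tRNA, had longer reads (5%), which makes 7.5% in either direction. Without WT replicate 3 all 3 were just short of the threshold (adjusted p between 0.051 and 0.0517 by limma). Among reads of 25 to 40 nt none of these 3 passed, and the sign turned in GlyTCC (0.51 nt) and SeC(e)TCA (-0.27 nt).

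By exact length, 4.09% of 562 pairs of isoacceptor and length rose and 3.38% fell (7.47% in all). After TMM, 9.07% were higher and 9.61% lower in all 4 NSun2-/- than in all 4 WT libraries. Of 199 pairs of 30 to 37 nt, 18 rose and 3 fell. Of 135 pairs over 45 nt, 1 rose (LysCTT of 52 nt) and 13 fell, and their median was -0.30 beside 0.09 over all 562 (-0.41 without TMM). HisGTG rose at 8 lengths, among them 22 nt, where it had 11.2, 12.5, 8.90 and 12.6 CPM in WT and 50.4, 33.6, 47.3 and 32 CPM in NSun2-/- libraries (log2 2.35, edgeR adjusted p = 0.00212). Of the 42 calls by length, 4 held without any 1 library, namely HisGTG of 22 nt, GlyTCC of 57 nt, AspGTC of 53 nt and GlyCCC of 54 nt. The other 38 were all lost without WT replicate 2 (adjusted p between 0.0553 and 0.143 by edgeR), among them HisGTG of 23 nt (2.44, then 0.0624) and AsnGTT of 33 nt (2.13, then 0.0553). CysGCA of 33 nt, the read that ends on the first anticodon base, went from 37.8, 61.5, 90.7 and 66.3 CPM to 186, 177, 267 and 130 CPM (log2 2.04, edgeR adjusted p = 0.0143), a call lost without WT replicate 2 (0.0723) or 4 (0.0834). At 32 nt, the main length of CysGCA, there was no call.

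Of the 19 falls by length, 13 were of reads over 45 nt, in GlyTCC, GlyCCC, AspGTC, GluCTC and SerGCT, 3 of 30 to 37 nt and 3 of shorter reads. GlyTCC of 53 nt went from 111, 196, 135 and 132 CPM in WT to 33, 22.9, 29.4 and 10.2 CPM in NSun2-/- libraries (log2 -2.06, edgeR adjusted p = 0.0130, and 0.0586 without WT replicate 2). GlyTCC of 57 nt had between 104 and 141 counts in each WT library and 0 in each NSun2-/- library. No fold is given, because low counts may be missing from the deposited data. Among its rarest isoacceptors the lowest count above 0 was 17. AspGTC of 53 nt went from 19.4, 57.2, 24.3 and 26.0 CPM to 4.58, 1.77, 4.82 and 1.99 CPM (log2 -2.75, edgeR adjusted p = 0.00725). AspGTC of 26 nt had between 20 and 55 counts in WT libraries, close to that lowest count, and 0 in each NSun2-/- library. Its call was lost without WT replicate 2 (adjusted p = 0.0585 by edgeR). GlyGCC fell at 36 nt, from 81.8, 209, 187 and 172 CPM to 53.2, 22.4, 50.5 and 32.8 CPM, and at 37 nt (log2 -1.56 and -1.99), and without WT replicate 2 neither passed (adjusted p = 0.0862 and 0.0998 by edgeR). These 2 lengths end past the anticodon. GlyGCC also fell at 22 nt, which ends before the anticodon loop (-1.23, adjusted p = 0.0453 by edgeR), and at 30, 31 and 32 nt it did not pass. The other short falls were AspGTC of 26 nt and LysCTT of 27 nt (-2.23, adjusted p = 0.0239 by edgeR).

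The sequence of the GlyGCC 5′ reads differed past the threshold at 1 position between the genotypes, in a comparison added after the data had been seen. At nucleotide 9, counted from the first nucleotide of the read, the gene has G. Reads with another base there made up 2.10, 2.24, 2.12 and 2.65% of the GlyGCC 5′ reads in WT and 12.2, 10.9, 9.45 and 11.6% in NSun2-/- libraries, and the groups are far apart with little spread within each. On the log2 scale, with 0.1 percentage points added, the difference was 2.23 (SE 0.12, limma adjusted p = 3.64e-05), and it passed without any 1 library. The bases C and A carry most of it. G9C went from 1.13% ± 0.112 to 6.26% ± 0.632 and G9A from 0.767% ± 0.0909 to 4.10% ± 0.553, while G9T went from 0.381% ± 0.0676 to 0.669% ± 0.0236 (SD, n = 4 each). The most abundant reads with these changes are shown with the changed base in capitals. Neither has an exact match in the mm9 genome. The read with G9C has 1 mismatch to GlyGCC and 2 to GlyCCC, whereas that with G9A has 1 to each, and such ties were given to GlyGCC.
GlyGCC, 31 nt, G9C: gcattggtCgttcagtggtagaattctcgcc
GlyGCC, 31 nt, G9A: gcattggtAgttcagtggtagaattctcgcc

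The read of 31 nt with G9C was counted at 2528, 3818, 4690 and 5079 CPM in WT and at 26210, 20809, 19083 and 21263 CPM in NSun2-/- libraries. A difference in the same direction was found in each kind of GlyGCC read that was examined, which left out CCA-end reads. In reads of 18 nt it was 1.86% against 12.6%, in those of 30 nt 2.18% against 7.97%, of 31 nt 3.09% against 14.3% and of 32 nt 1.25% against 7.54% (WT and NSun2-/- means). Reads that start at nucleotide 2 had 0.741% against 4.97%, and near full-length reads 3.02% against 12.9%. In near full-length reads G9T went from 1.48% ± 1.39 to 5.06% ± 2.95 (SD, n = 4 each), with overlap. Their G9C went from 0.926% to 4.68% and their G9A from 0.619% to 3.17%. For the share with any other base, all NSun2-/- libraries lie above all WT libraries in each kind (exact permutation p = 0.0286, adjusted 0.0286 over 8). WT replicate 1 and NSun2-/- replicate 2, which stand apart in where reads end, lie within their own group here.

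**Figure D4:**
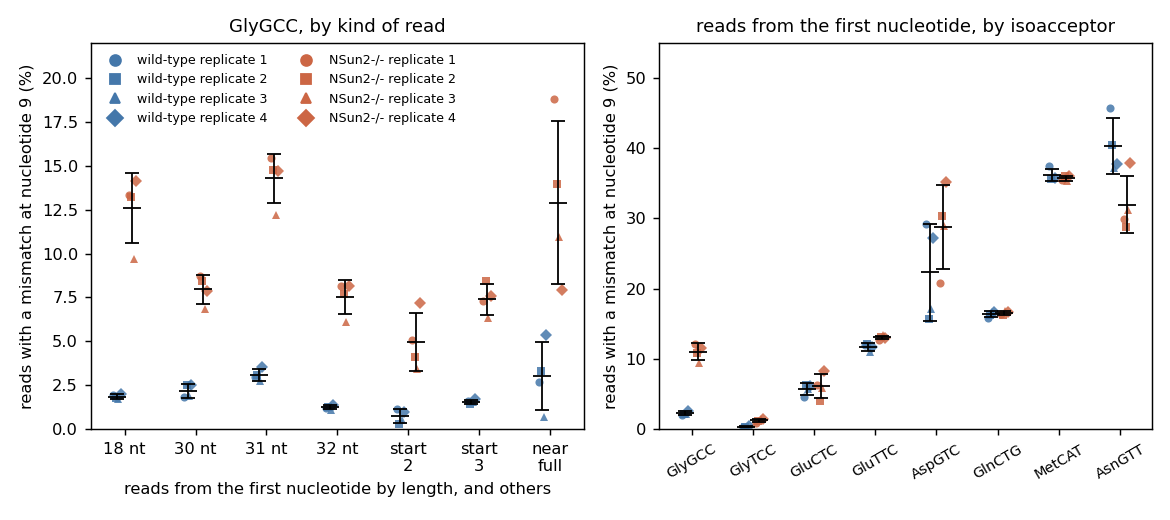
Share of reads with a base other than that of the gene at nucleotide 9 (%, vertical axes), in GlyGCC reads by length or start (left) and in 5′ reads of 8 isoacceptors (right); points are libraries, WT in blue and NSun2-/- in orange, and bars give the mean and SD (n = 4). GlyGCC lies at 2.10 to 2.65% in WT and 9.45 to 12.2% in NSun2-/- libraries, whereas MetCAT is at 36.1% and 35.7%.

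Nucleotide 9 is a purine that is often methylated in tRNAs, and reverse transcriptase may misread such a base, but whether it is modified in these reads was not measured. It could be tested in 12 isoacceptors, and 2 passed, GlyGCC and GlyTCC. GlyTCC had 0.352% ± 0.0627 in WT and 1.26% ± 0.270 (SD, n = 4 each) in NSun2-/- libraries (limma adjusted p = 0.00312). These GlyTCC shares rest on 1771 to 10220 reads per library, beside at least 8906826 for GlyGCC. Few GlyTCC reads therefore carried the mismatch. The 10 others did not pass. In reads nearer to GlyCCC, the share with a base other than that of the matched gene was 77.0% ± 4.30 in WT and 62.2% ± 10.99 (SD, n = 4 each) in NSun2-/- libraries (limma adjusted p = 0.290). The GlyCCC sequence printed above, with A at nucleotide 9, is that of 2 of the 4 placed GlyCCC genes. In AsnGTT the share was 40.3% ± 3.93 and 31.95% ± 4.07 (adjusted p = 0.211 by limma). Both GlyCCC and AsnGTT were lower in NSun2-/- libraries. Others that did not pass were MetCAT with 36.1% ± 0.871 and 35.7% ± 0.369, GlnCTG with 16.4% ± 0.435 and 16.6% ± 0.245, GluTTC with 11.7% ± 0.537 and 13.1% ± 0.273 and AspGTC with 22.4% ± 6.89 and 28.8% ± 5.97 (SD, n = 4 each). Over 112 values of an isoacceptor and nucleotide, 1.79% were higher and 4.46% lower in NSun2-/- libraries. The 5 lower values were GluCTC at nucleotides 47 (6.68% in WT, 1.08% in NSun2-/-) and 48 (6.90% and 1.09%), HisGTG at 37 (4.04% and 2.12%), LysCTT at 38 (2.20% and 0.539%) and AlaAGC at 32 (2.08% and 0.0546%). Each of these 5 was lost without WT replicate 2, 3 or 4 or NSun2-/- replicate 1 (adjusted p between 0.054 and 0.127 by limma). GlyGCC at nucleotide 38 just missed the threshold, with 7.13% ± 1.98 in WT and 2.21% ± 1.18 (SD, n = 4 each) in NSun2-/- libraries, without overlap (limma adjusted p = 0.0504). Its nucleotides 36 (25.1% and 12.3%) and 37 (6.55% and 3.02%) were lower in mean, with overlap (adjusted p = 0.104 and 0.117 by limma). The share of all 5′ reads with any mismatch was 13.1% ± 1.62 in WT and 17.9% ± 0.663 in NSun2-/- libraries, and without GlyGCC it was 20.4% ± 2.15 and 19.6% ± 1.58 (SD, n = 4 each, exact permutation p = 0.629).

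Near full-length reads differed at the other end. Of all of them, 84.9, 82.4, 81.7 and 81.9% ended 3 nucleotides past the gene, at the end of the CCA, in WT and 63.7, 69.6, 64.8 and 51.0% in NSun2-/- libraries. Reads with a mismatch in these 3 nucleotides are included, whereas the class with CCA above needs the letters CCA. The pooled share also depends on the mix of isoacceptors, and near full-length GluTTC reads, nearly all with CCA, had lower CPM in NSun2-/- libraries. The part of this mix in the pooled difference was not tested. Within a single isoacceptor a difference was seen in GluCTC, whose reads stopped at the gene end, 1 nucleotide past it, or after the CCA. Near full-length GluCTC reads that end 3 nucleotides past the gene made up 67.1, 55.6, 51.2 and 50.4% in WT and 27.4, 31.9, 26.5 and 25.7% in NSun2-/- libraries. Those with 1 nucleotide past the gene made up 19.0, 26.7, 30.8 and 30.1% in WT and 50.5, 42.1, 49 and 50.3% in NSun2-/- libraries. Those that stop at the gene end made up 7.21% ± 1.24 and 16.7% ± 1.48, and those with 2 nucleotides 9.84% ± 1.45 and 6.90% ± 0.548 (SD, n = 4 each). The groups do not overlap in any of these 4 shares. With 32 such values tested, an exact permutation p of 0.0286 has an adjusted p of 0.0538, which misses the threshold.

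GluTTC, the other glutamate tRNA, ended 3 nucleotides past the gene in 99.9% ± 0.0289 of near full-length reads in WT and 99.8% ± 0.00995 in NSun2-/- libraries. HisGTG (97.5% ± 0.669 and 93.6% ± 1.66), LysCTT (94.6% ± 2.06 and 88.5% ± 0.568) and AspGTC (98.6% ± 0.591 and 96.8% ± 0.320) moved in the same direction as GluCTC without overlap (SD, n = 4 each). Over 28 such values of single isoacceptors, 28.6% were higher and 21.4% lower in all 4 NSun2-/- than in all 4 WT libraries. The 4 shares of an isoacceptor add up to nearly all of its reads, so a lower share in one forces a higher one elsewhere. Reads with the CCA were aligned by the authors in a separate step after trimming. In the genome a C follows 5 of 6 GluTTC genes and 0 of 6 GluCTC genes. The part of the alignment step and of this base in the values was not tested. Among the near full-length reads without CCA, counted per library, LysCTT rose (1.01, edgeR adjusted p = 0.0247) and SerGCT (-2.49) and CysGCA (-3.49) fell, 6.25% and 12.5% of 16 tested. SerGCT had 29.8, 31.6, 28.1 and 27.5 CPM in WT and 6.95, 1.17, 3.63 and 4.21 CPM in NSun2-/- libraries, without overlap. The SerGCT call held without any 1 library. LysCTT lost its call without TMM, both LysCTT and CysGCA lost theirs without WT replicate 2 (adjusted p = 0.0787 by edgeR), and CysGCA, at no more than 1.19 CPM in any library, reversed when reads from 80% of the gene were counted (1.10). GluCTC itself gave 17661, 21033, 15821 and 14714 CPM in WT and 25824, 7893, 27364 and 39929 CPM in NSun2-/- libraries and did not pass (0.99, adjusted p = 0.061 by edgeR).

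**Figure D5:**
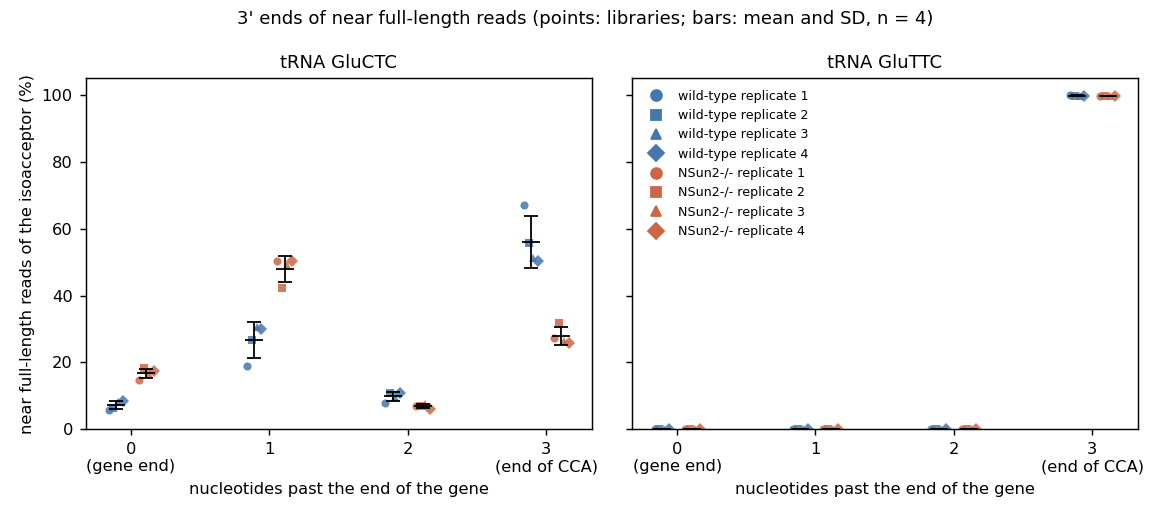
Share of near full-length reads of GluCTC (left) and GluTTC (right) that end 0, 1, 2 or 3 nucleotides past the gene (%, vertical axis); points are libraries, WT in blue and NSun2-/- in orange, and bars give the mean and SD (n = 4). GluCTC reads that end 3 nucleotides past the gene lie at 50.4 to 67.1% in WT and 25.7 to 31.9% in NSun2-/- libraries, and GluTTC reads stay above 99% in both.

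The other isoacceptors of the table are not described further, and only some of them are rare. Of the 60 names, 14 have under 100 counts in some library, and of these IleGAT reaches 338 and SerACT 544 counts in its highest library. Tyrosine, LeuCAA, ArgTCT and IleTAT tRNAs have genes with introns, and mature reads across the splice junction may fail to align. Reads that cross it may therefore be undercounted in both genotypes. These are near full-length reads, CCA-end reads that start before the junction and 5′ reads that run past it. The CCA-end reads of ArgTCT, which fell, may be affected.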

How the data were processed

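Small RNA libraries (TruSeq Small RNA) were made from back skin RNA after rRNA depletion, size selection and removal of amino acids, 4 per genotype, described as independent biological replicates by the study. The authors removed adapters, aligned reads to mm9 with Bowtie allowing 2 mismatches, trimmed CCA from unaligned reads and aligned them again, and divided reads matching several tRNA genes by their unique reads. The deposited table pairs each gene and sequence with whole-number counts that are not scaled. Since shared reads were divided by a fixed rule, these counts do not stand for independent molecules, and binomial intervals are left out.

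Rows were split into gene and read, and reads were placed with at most 4 mismatches on 247 tRNA genes. No place was found for 0.169% to 0.201% of the counts per library. Counts per isoacceptor and class, or per isoacceptor and length, were tested with edgeR 4.0.16 (R 4.3.3), its quasi-likelihood test, TMM, filterByExpr and a Benjamini-Hochberg adjusted p under 0.05. Mean lengths (at least 100 counts per library) and mismatch shares were tested with limma 3.58.1, the latter for isoacceptors and nucleotides with at least 1000 reads and 1% mismatches, on log2 of the percentage plus a pseudocount of 0.1. Single values were compared by exact two-sided permutation of the libraries. The scripts were tested on simulated data. A missing call is no sign of equal levels.

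Named were all tested isoacceptors of tRNAs Asp, Glu, Gly, His, Lys, Val and Cys, the 5 most abundant of each class, and up to 5 rises and 5 falls per table whose groups do not overlap. Other names were chosen after their values were seen. Members, classes and lists were chosen with earlier results of these data known. Alternatives were the scaling, DESeq2 1.42.0, the low-count filter, a replicate block, the placed gene, reads without mismatch, the start, a near full-length limit of 80%, lengths of 25 to 40 nt, equal weights, and each library left out. The mismatch comparison and the omission of 2 libraries that stand apart were chosen after seeing the data. Other assays of the series were not used here. The gene and read sequences of GluCTC are not reported here.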

Additional observations from a re-analysis of the deposited data

Results flagged for a closer look

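In 9 of 102 groups of 4 libraries 1 library lay far from the other 3 by Dixon's criterion, which marks about 1 group in 20 by chance. Among the NSun2-/- libraries, replicate 2 had the highest share of 5′ reads, 93.9% of its counts. Replicate 4 was highest in ValCAC 5′ reads (188442 CPM) and in ValAAC 5′ reads (4070 CPM). Replicate 3 was highest in HisGTG 5′ reads (48777 CPM) and in LysCTT 5′ reads (21777 CPM). Replicate 2 was lowest in ArgTCT CCA-end reads (1085 CPM). Among the WT libraries, replicate 2 was highest in CCA-end reads of SerAGA (1133 CPM), SerTGA (957 CPM, from largely the same reads as SerAGA) and ProTGG (293 CPM). The calls on ValCAC, HisGTG, ArgTCT, SerAGA, SerTGA and ProTGG held without each of these libraries, and for LysCTT there was no call.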

How the results depend on the processing

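Scaling decides the balance of rises and falls. By class, 20 rises became 5 without TMM, 31 with DESeq2 and 11 without WT replicate 1 and NSun2-/- replicate 2 together, the libraries that stand apart (falls 9). By length, 23 rises became 5 without TMM, 37 with DESeq2, 15 without a filter and 6 in reads without mismatch, and 19 falls became 31, 43, 20 and 12. Of the 40 class calls, 22 were still called without TMM and all 40 with DESeq2, and all 40 kept their direction in both. Of the 42 length calls, 24 and 42 were still called.

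Leaving out 1 library gave 5 to 23 rises and 6 to 20 falls by class, 1 to 22 rises and 3 to 26 falls by length, 0 to 4 longer and 0 to 3 shorter isoacceptors, and 2 to 4 higher and 0 to 11 lower mismatch shares. WT replicate 2 decided most, with 5 rises and 7 falls by class and 1 rise and 3 falls by length without it. The difference in share moved from -4.57 to -3.41 points for near full-length reads with CCA, 0.293 to 1.38 for those without, 5.25 to 8.85 for 5′ reads, -4.82 to -2.85 for CCA-end reads and -0.263 to 0.0240 for internal reads. For ends before the loop it ran from -2.78 to 8.92, for 32 and 33 from -7.23 to 3.48, and for mean length from -0.0565 to 0.172 nt.

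The labels do not say whether WT and NSun2-/- libraries of the same replicate number are paired. The correlations of deviations between libraries of the same number were 0.16, -0.60, -0.07 and -0.37 by class, and all 4 were below 0 by length. They show no sign of pairing, but so few libraries cannot exclude it. With the replicate block there were 2 rises and 5 falls by class, 0 and 0 by length (41 and 49 at an unadjusted p under 0.05, edgeR), 0 longer and 0 shorter isoacceptors (4 and 3 unadjusted, limma), and 1 lower mismatch share.

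Some values changed sign, and of these the CysGCA near full-length reads without CCA and the mean lengths of GlyTCC and SeC(e)TCA were calls. Without TMM they were the 5′ reads of CysGCA (-0.0656), GlyCCC (-0.27), GlyGCC (-0.0860) and LysCTT (-0.43), and without the 2 libraries CysGCA (-0.0860), GlyCCC (-0.13), LysCTT (-0.28) and the share of internal reads (0.0230 points). In reads without mismatch LysTTT was at 0.0938. Leaving out 1 library gave -0.602 to 0.0441 for AspGTC, -0.0527 to 0.405 for GlyCCC, -0.137 to 0.268 for LysCTT and -0.769 to 0.159 for LysTTT. With isoacceptors weighted equally, ends before the loop differed by -0.499 points and ends at 32 and 33 by 2.25 points. CysGCA near full-length reads without CCA turned to 1.10 at a limit of 80%. For mean length, reads of 25 to 40 nt gave 0 longer and 0 shorter isoacceptors, with GlyTCC at 0.51 and SeC(e)TCA at -0.27 nt, and a minimum of 1000 counts, or reads without mismatch, gave 1 longer. The cause of these changes was not tested.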
